A study of Mus musculus with 2 samples.

Results

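The Peg3 and Peg10 imprinted clusters are 2 groups of neighbouring genes in the mouse, Peg3, Usp29 and Zim1 on chromosome 7 and Peg10, Sgce, Asb4 and Ppp1r9a on chromosome 6. CTCF binding at these 7 genes, chosen by name from the 21627 RefSeq protein-coding genes of the autosomes and X, was described from ChIP-seq peak lists. The cells were E14TG2a.4, an established embryonic stem cell line of strain 129/Ola from a male embryo, with 3.5 day given as the age and no treatment named. Both libraries, biological replicates 1 and 2, belong to a single group made with an antibody to CTCF, and each comes from its own biosample record of the same donor. No second condition exists, so nothing was tested between groups, and the spread between these 2 libraries is the only replicate error.

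CTCF is a zinc-finger protein that binds DNA at insulators and at the anchors of chromatin loops. At several imprinted genes, where a single parental copy is active, it is known to bind only the copy that lacks DNA methylation. Peg3 and Peg10 are paternally expressed, and in each cluster the methylated control region lies at the start shared by a divergent pair of genes, Peg3 with Usp29 and Peg10 with Sgce. The peak lists give no allele, so the maternal and paternal copies were not separated in any value here. The lists also give no read counts, and the depth of each library is unknown.

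A gene's window was its span plus 100 kb each side on the mm10 build, and a peak was in it when its summit was. The Peg3 cluster, whose joined windows run over 492.8 kb of chromosome 7 (6574444 to 7067220), held 11 of the 43344 peaks of the authors' conservative set. The Peg10 cluster held 12 over 940.9 kb of chromosome 6 (4574350 to 5533022, with a gap between the windows of Ppp1r9a and Asb4). That makes 2.23 peaks per 100 kb in the Peg3 cluster and 1.28 in the Peg10 cluster. Peaks closest to a window's edge on the outside lay 48.1 kb below and 53.7 kb above the Peg3 cluster, with pooled signals of 207.9 and 47.2. For the Peg10 cluster they lay 28.4 kb below and 56.8 kb above, with 132.6 and 169.3.

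Sequence from the first intron of Peg3 is printed first, because a CTCF peak there held a run of a known word. In the separate mm9 calls this peak runs from 6679542 to 6680789 on chromosome 7. It held 5 copies of the word GCCATNTT, the core of the site bound by YY1, a zinc-finger protein known to bind a run of sites in this intron. Both strands were searched, the word does not overlap itself, and all 5 copies lay on the minus strand, the strand of Peg3. Of 39349 pooled mm9 peaks, 17.5% held at least 1 copy and 0.147% at least 3, and this peak was the 1 peak with 5. The peak is 1248 bp wide, a width that 5.54% of pooled peaks reach, against a median of 913 bp. The word was chosen after the data were seen, from knowledge of the locus.

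The 5 copies, each with 8 bases either side, are given 5′ to 3′ on the minus strand of mm9, with the word in capitals.
Copy at chr7:6680675-6680682: cacctgacGCCATCTTtgctgacg
Copy at chr7:6680645-6680652: gtgcagtaGCCATCTTgaatgaca
Copy at chr7:6680556-6680563: acctgggcGCCATCTTtacttgtc
Copy at chr7:6680134-6680141: cctctggcGCCATCTTtgttggcc
Copy at chr7:6680012-6680019: tcattggcGCCATCTTtgttggcc
The best match to the CTCF motif in the same peak stood 4 bases beyond a copy of this word. The stretch of 146 bases that holds both, chr7:6680004-6680149 on the minus strand of mm9, shows the CTCF match of 19 bases and 2 copies of the word in capitals.
Stretch in the Peg3 intron: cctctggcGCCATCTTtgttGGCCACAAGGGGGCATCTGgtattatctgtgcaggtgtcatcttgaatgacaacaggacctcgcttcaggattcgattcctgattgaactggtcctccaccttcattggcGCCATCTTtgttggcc
The other copy lay 91 bases from the CTCF match. Each replicate's own mm9 peak held all 5 copies, and a match to letters does not show that YY1 was bound in these cells.

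**Figure D1:**
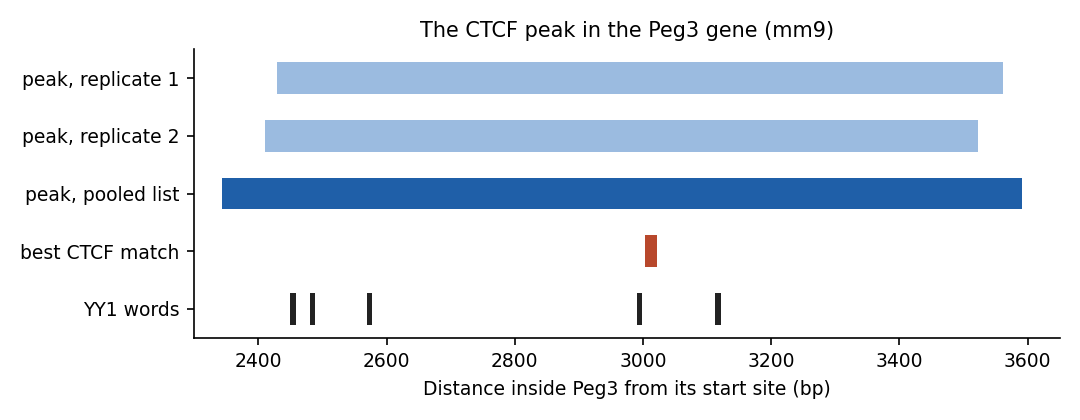
Position of the CTCF peak in the first intron of Peg3 on mm9, in bp inside the gene from its start site, with the peak as called in replicate 1, replicate 2 and the pooled list, the best CTCF motif match and the 5 copies of the YY1 word. The CTCF match lies at 3003 to 3021 bp, and 3 of the 5 copies lie between 2450 and 2576 bp.

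Best matches to a CTCF motif are printed for the mm9 peaks that the results turn on, including some too weak to be called a motif. A 19 bp model was learnt from the 5000 strongest pooled mm9 peaks of other chromosomes, so no peak of these clusters shaped it, and its most frequent bases read GGCCACCAGAGGGCGCTAG. A peak was said to have a motif when its best match, on either strand, reached 20.7 bits, the score that 1% of flanking windows of the same length reach. The printed matches beside the Usp29 start, at both Asb4 places and in the Ppp1r9a intron were under it. Places below and above Usp29 are between genes in the mm9 annotation, where Usp29 is a short model (6913871 to 6916480). In the mm9 motif results, Usp29 and its start mean that model. On mm10 the Usp29 span is 236.7 kb long and starts beside Peg3, so such a place can lie deep inside the gene there. Each best match is given 5′ to 3′ on its own strand, with the 19 bases in capitals and 10 bases either side.
Zim1 intron, chr7:6641633-6641671, minus strand: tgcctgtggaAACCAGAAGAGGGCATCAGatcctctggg
Peg3 first intron, chr7:6680101-6680139, minus strand: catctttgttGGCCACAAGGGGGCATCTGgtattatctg
Below Usp29, chr7:6871157-6871195, minus strand: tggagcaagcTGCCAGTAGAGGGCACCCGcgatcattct
Below Usp29, chr7:6893634-6893672, plus strand: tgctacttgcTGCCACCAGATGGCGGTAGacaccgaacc
Beside the annotated Usp29 start, chr7:6911464-6911502, minus strand: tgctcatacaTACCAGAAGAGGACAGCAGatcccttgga
Above Usp29, chr7:6980335-6980373, plus strand: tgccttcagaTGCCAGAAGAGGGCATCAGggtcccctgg
Beyond Peg10, chr6:4749542-4749580, minus strand: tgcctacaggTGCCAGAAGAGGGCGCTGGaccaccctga
Asb4 start, outside the gene, chr6:5332699-5332737, minus strand: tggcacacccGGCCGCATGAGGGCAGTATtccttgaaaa
Asb4 start, inside the gene, chr6:5334331-5334369, minus strand: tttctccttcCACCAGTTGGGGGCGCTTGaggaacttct
Ppp1r9a intron, chr6:4933125-4933163, minus strand: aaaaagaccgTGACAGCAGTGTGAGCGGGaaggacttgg
The word CAGAAGAGG, which the model was started from, stands in 4 of the 18 best matches of both clusters (22.2%), those of the Zim1 intron, beside the Usp29 start, above Usp29 and beyond Peg10. Over all pooled peaks the share was 22.3%, so this word is as common elsewhere.

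Motif matches above that score were found in 5 of 9 pooled mm9 peaks of the Peg3 cluster and 1 of 9 of the Peg10 cluster, against 31.1% of all pooled peaks. At the stricter score of 23.9 bits, which 0.1% of flanking windows reach, the order turned, with 0% of the peaks of the Peg3 cluster and 11.1% of those of the Peg10 cluster. This turn rests on 1 peak, the 1 of 9 beyond Peg10. The highest scores were 24.2 bits beyond Peg10, 23.3 and 22.7 below Usp29, 22.2 above it, 20.9 in the Peg3 intron and 20.8 in the Zim1 intron. A further peak below Usp29 scored 20.3, just under the threshold. Of the matches above the threshold along the Peg3 cluster, the 3 with the lowest coordinates were on the minus strand and the next 2 on the plus strand. Peaks under the threshold did not keep this order. The strongest mm9 peak of the cluster, with a pooled signal of 23.9, had its best match of 16.9 bits on the minus strand. It lay between those 2 plus-strand matches. Both Asb4 start peaks scored under the threshold, at 14.8 and 14.7 bits, and the peak in Ppp1r9a with the highest mm9 signal of the Peg10 cluster, 19.4, had a best score of -0.8. That best match lay 393 bp from the midpoint of the Ppp1r9a peak. In 14 of the 18 peaks the best match lay within 50 bp of the midpoint, a share of 77.8%, against 68.4% of all pooled peaks and 11.1% of flanking windows. A peak under the threshold can therefore hold a weaker match at its centre, as both Asb4 start peaks did at 5 and 8 bp from the midpoint.

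Peg3, Usp29 and Zim1 each had a CTCF peak in the gene span, and so did Asb4 and Ppp1r9a, while Peg10 and Sgce had 0 conservative peaks there. Among all protein-coding genes 42.3% had such a peak, and among their wider windows 90.5% had at least 1, as did all 7 members. Shares with a span peak were also taken over protein-coding genes of 0.8 to 1.25 times each member's length. They were 49.4% for Peg3, 93.1% for Usp29, 45.5% for Zim1, 64.7% for Asb4 and 93.5% for Ppp1r9a. For Peg10 and Sgce they were 36.2% and 73.6%. Window counts were 10 for Usp29, 7 for Asb4, 5 for Zim1, 4 for Peg3, 3 for Ppp1r9a and 2 each for Peg10 and Sgce. Windows overlap, so a peak can count for several members. At least as many peaks were found for 32% of protein-coding genes at the count of Usp29, 52.3% at that of Asb4, 66.7% at Zim1, 73.5% at Peg3, 79.7% at Ppp1r9a and 84.9% at Peg10 and Sgce. The long span of Usp29 weighs on its count, and per 100 kb of window 58.8% of genes held at least as many. The members' median of 4 peaks lay below the median of 7 over all protein-coding genes.

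**Figure D2:**
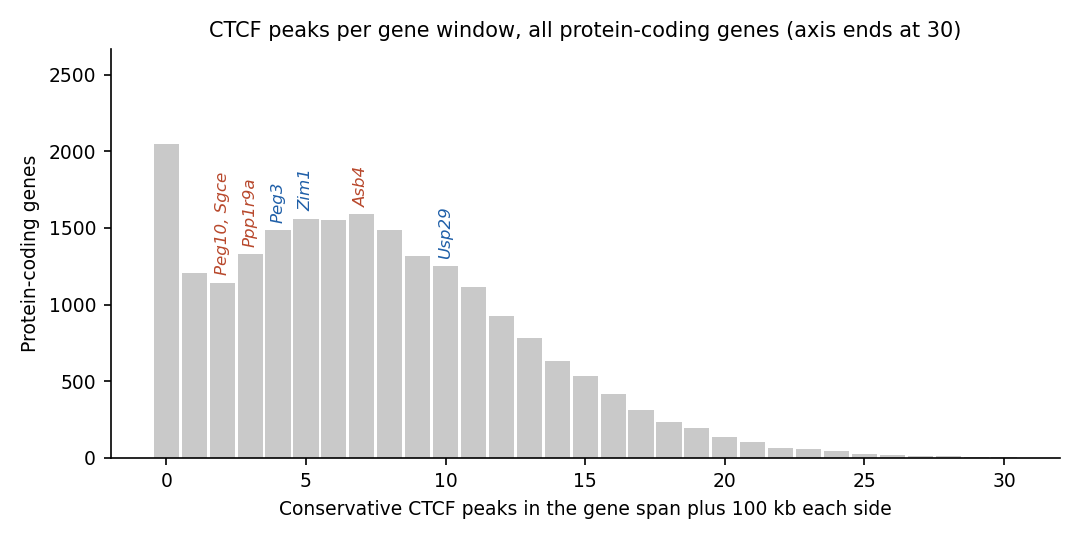
Number of protein-coding genes (y axis) by the number of conservative CTCF peaks in the gene span plus 100 kb each side (x axis), with the 7 members named above the bar of their own count. The members lie between 2 and 10 peaks, where the median over all genes is 7.

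Peg3 encodes a large zinc-finger protein that is active in the brain, the placenta and stem cells. Its single peak inside the gene (mm10, 6727254 to 6727569) had its summit 3050 bp inside the start. The signal was 37.9 in replicate 1, 35.7 in replicate 2 and 74.2 in the pooled list, close to the median of 77.2 over the conservative set. Relative to each replicate's own median over the matched conservative peaks, 41.6 and 38.7, this was 0.916 ± 0.00920 (SD, n = 2), the smallest SD of the 23 peaks of both clusters. The optimal set listed a second summit nearby, 2845 bp inside the start, with 8.11 and 12.4 in replicates 1 and 2 and 23.5 pooled. No conservative or optimal summit lay within 1 kb of the start of Peg3. The lists of peaks and background held no pooled entry there and a single entry of replicate 2, with a signal of 6.65 against that list's median of 6.08. The conservative and optimal summits at Peg3 thus sat inside the gene, with none within 1 kb of the start it shares with Usp29. The extent of the methylated control region was not mapped here. Whether the peak in the first intron lies within that region was not tested.

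Usp29 is a paternally expressed gene related to ubiquitin-specific proteases, transcribed away from Peg3. Its 5 peaks inside the 236.7 kb span had summits at least 176604 bp from its start, after a stretch of 179.8 kb without a conservative peak that begins in the Peg3 intron. The strongest (6958659 to 6958886, also inside the noncoding gene Zim3) had signals of 96.8 and 100.1 in replicates 1 and 2 and a pooled signal of 198.7. It ranked 1955 of 43344 conservative peaks, the highest rank of both clusters, and its relative signal was 2.45 ± 0.184 (SD, n = 2). The next 3 by strength, at 6937263 to 6937426, 6940846 to 6941018 and 6918383 to 6918528, had pooled signals of 128.1, 114.1 and 81.1. The weakest (6907005 to 6907320) had 9.25 and 12.5 in the replicates and 20.7 pooled. Of 495 protein-coding genes of 0.8 to 1.25 times the length of Usp29, 39.4% held 5 or more peaks, so the count itself is common for a gene of this size.

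Zim1, a zinc-finger gene expressed from the maternal copy, had a strong and a weak peak. The one inside the gene (6688857 to 6689041), 7577 bp from the start, had signals of 71.4 and 69.4 in replicates 1 and 2, 141.9 pooled and 1.75 ± 0.0541 relative to the replicates' medians. Right at the start, 171 bp outside the gene, the other (6696553 to 6696868) was weak, with 15.3 and 10.4 in the replicates, 27.4 pooled and a relative signal of 0.318 ± 0.0704. In both replicates the inner peak was higher, by more than the spread between replicates. The noncoding neighbour Zim2 carried a peak with 93.3 and 67.4 (6659722 to 6659901, 163.3 pooled), which fell within the windows of all 3 members of this cluster. The remaining peaks lay between genes at either end, at 6586474 to 6586611 and 7027553 to 7027703, with pooled signals of 110.6 and 133.7.

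**Figure D3:**
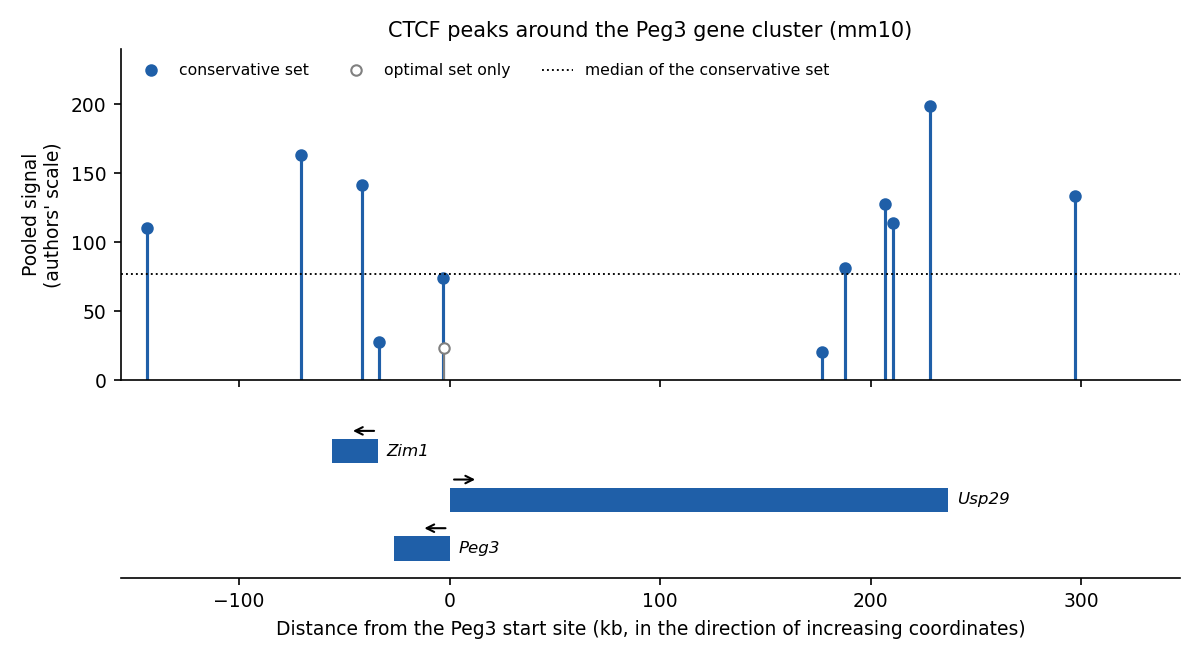
Pooled CTCF signal of each peak of the Peg3 cluster (y axis, on the authors' scale) by its distance from the Peg3 start in kb (x axis), with the member genes as bars and arrows for their direction. Filled points are conservative peaks, the open point is a peak of the optimal set alone, and the dotted line is the median of the conservative set, 77.2. No point lies between the Peg3 intron and the peaks of Usp29, the first of which is 176604 bp from the Usp29 start.

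The 300 bases of the Zim1 promoter are shown because the weak peak at this start overlaps them, with its summit just upstream (RefSeq, GRCm38.p6, the reference strain C57BL/6J, chr7:6696383-6696682, minus strand). Capitals mark the best match to the CTCF model, which scored 5.4 bits, a score that 30.3% of 32851 RefSeq promoters of this length reach. This match lies in the part of the promoter outside the peak. Its score therefore does not describe the sequence under the peak.
Zim1 promoter: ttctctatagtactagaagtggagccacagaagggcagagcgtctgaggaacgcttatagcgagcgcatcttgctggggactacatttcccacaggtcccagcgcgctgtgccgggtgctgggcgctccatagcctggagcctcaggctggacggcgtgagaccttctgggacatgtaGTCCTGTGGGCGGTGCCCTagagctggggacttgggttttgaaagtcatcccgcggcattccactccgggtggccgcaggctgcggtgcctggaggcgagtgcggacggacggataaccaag
Promoters of 5 of the 7 members are in that table, 7 in all, and none reached 20.7 bits, as 0.521% of all promoters do. The highest scored 9.7 bits, at a start of Ppp1r9a. The promoters of Peg3 and Usp29, which overlap, both reached -0.7 bits and held 0 copies of the YY1 word, which 6.05% of promoters hold.

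Peg10, a gene derived from a retrotransposon and needed for the placenta, and Sgce, which encodes epsilon-sarcoglycan and is transcribed the other way from the same start region, shared the fewest peaks. Their windows held the same 2 peaks. One (4652741 to 4653056) had 33.3 and 21.1 in replicates 1 and 2, 57.2 pooled and 0.672 ± 0.180 on the relative scale. The other (4799511 to 4799613), inside a noncoding gene 52261 bp beyond the Peg10 start, had 54.3 and 45.4, 101.4 pooled and 1.24 ± 0.0937. Among 1565 protein-coding genes of a length like that of Sgce, 73.6% held a conservative peak in the span, and of 2431 like Peg10, 36.2% did. At the start region itself, 23 bp from the Sgce start, the optimal set had a weak peak (4747023 to 4747338) that the conservative set did not. Its signal was 8.32 in replicate 1, 14.9 in replicate 2 and 25.3 pooled, above the medians of the full lists, 6.74, 6.08 and 9.57, and below the conservative median in each case.

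Ppp1r9a, which encodes the actin-binding protein neurabin, held 3 conservative peaks in its 262.8 kb, the nearest 74825 bp from the outermost start. On mm9, where 4 starts are annotated, a pooled peak in the gene (5060132 to 5061072) lay 2945 bp from the nearest of them. The strongest of the cluster (4982677 to 4982856) had signals of 84.0 and 71.4 in replicates 1 and 2, 154.6 pooled and a mean of 1.93 ± 0.122 relative to the medians. Another (5110540 to 5110696) had 55.2 and 63.6, 120.2 pooled. The third, a weak peak 5080 bp from the strongest (4977539 to 4977854; 10.5 and 15.7, 23.4 pooled), was the single peak of both clusters whose relative signal differed by over 1.5-fold between replicates, at 1.60-fold. In replicate 2 the matched summit was at -96 bp, near the limit of 100 bp, and matching within 50 bp would leave this peak out. Over all matched conservative peaks 17.4% differed by over 1.5-fold, against 1 of 23 here. Genes of like length held a median of 4 peaks.

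Asb4, which encodes an adaptor of a ubiquitin ligase and is expressed from the maternal copy, carried the densest run of sites. Within its 49.6 kb lay 5 conservative peaks, or 10.1 per 100 kb, and 3.32% of 2017 protein-coding genes of a similar length held as many. The 3 strong ones had pooled signals of 138.6 (5411036 to 5411196), 125.3 (5401490 to 5401654) and 123.2 (5384289 to 5384446). Their signals in replicates 1 and 2 were 83.9 and 53.9, 60.0 and 63.5, and 76.3 and 49.2, so 2 of them were higher in replicate 1. The other 4 peaks of the window were weak, with pooled signals of 24.3 to 37.03. In replicates 1 and 2 the strong ones were at least 60.0 and 49.2 and the weak ones at most 21.8 and 16.4. The groups were split on the pooled signal of these same libraries, so this separation is not independent of the split. The weak peak 652 bp outside the start (5382576 to 5382891; 21.8 and 15.2) was in the conservative set and not in the optimal one. It stood 1634 bp from the strong peak at 982 bp inside the gene, and both flank the start.

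**Figure D4:**
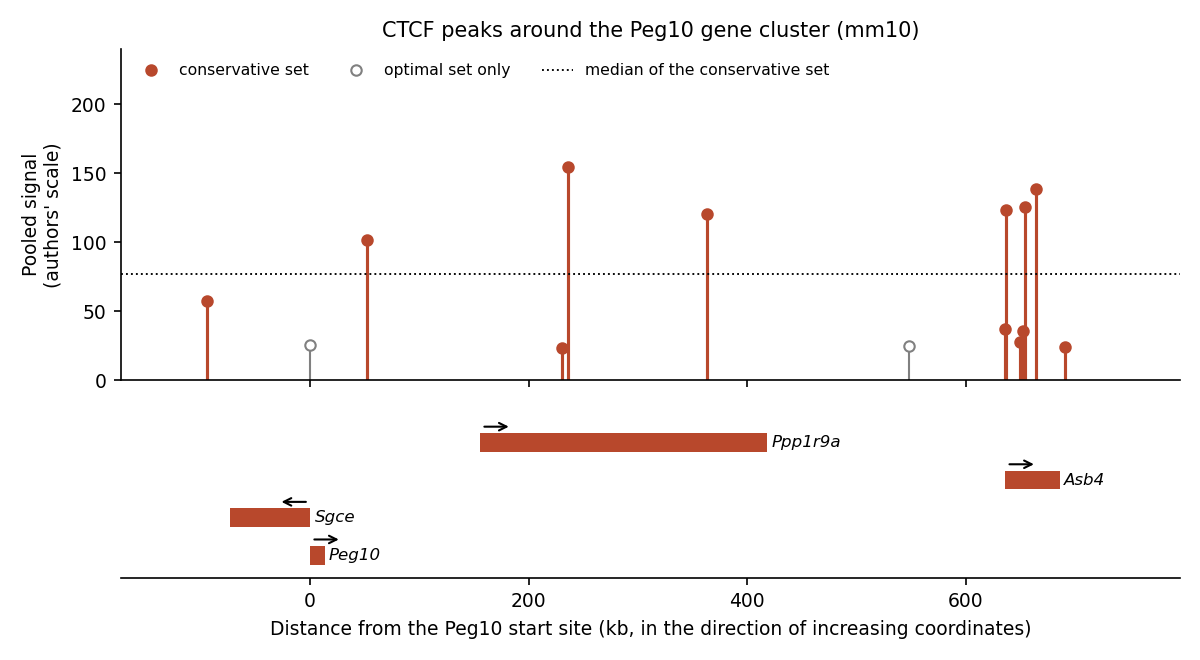
Pooled CTCF signal of each peak of the Peg10 cluster (y axis, on the authors' scale) by its distance from the Peg10 start in kb (x axis), with gene bars, arrows and point styles for the conservative set, the optimal set alone and the conservative median of 77.2. The peaks of Asb4 crowd at the right, and the start of Peg10 and Sgce has only an open point at 25.3.

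In the mm10 lists, peaks of the Peg3 cluster were stronger at the median than those of the Peg10 cluster in both replicates, an order that the mm9 lists did not keep in replicate 1. The median relative signal over the 11 peaks was 1.37 in replicate 1 and 1.48 in replicate 2, or 1.43 ± 0.0788 (SD, n = 2). Over the 12 peaks of the Peg10 cluster it was 1.05 and 0.858, or 0.955 ± 0.137. The difference was larger than the spread between replicates and was not tested, since peaks of a locus are not replicates. That spread is between libraries only, and single peaks of the clusters overlapped widely. Their mean relative signals ran from 0.272 to 2.45 in the Peg3 cluster and from 0.267 to 1.93 in the Peg10 cluster. On mm9 the median signals of the Peg3 and Peg10 clusters were 15.7 and 14.6 in the pooled list, 16.1 and 17.0 in replicate 1, and 18.4 and 14.6 in replicate 2. A pooled signal at or above the conservative median, reached by 50% of the set by definition, was found for 8 of 11 and 6 of 12 peaks. Gaps under 5 kb between neighbouring peaks numbered 3 of 11 in the Peg10 cluster, all at Asb4, and 1 of 10 in the Peg3 cluster, where 19.8% of all gaps between conservative peaks are that short. Elsewhere the Peg10 cluster was sparse, with a largest gap between conservative peaks of 272.1 kb, between Ppp1r9a and Asb4. Inside this gap the optimal set alone listed a weak peak, 88464 bp from the Asb4 start. Its signal was 25.04 pooled, 14.5 in replicate 1 and 7.88 in replicate 2.

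**Figure D5:**
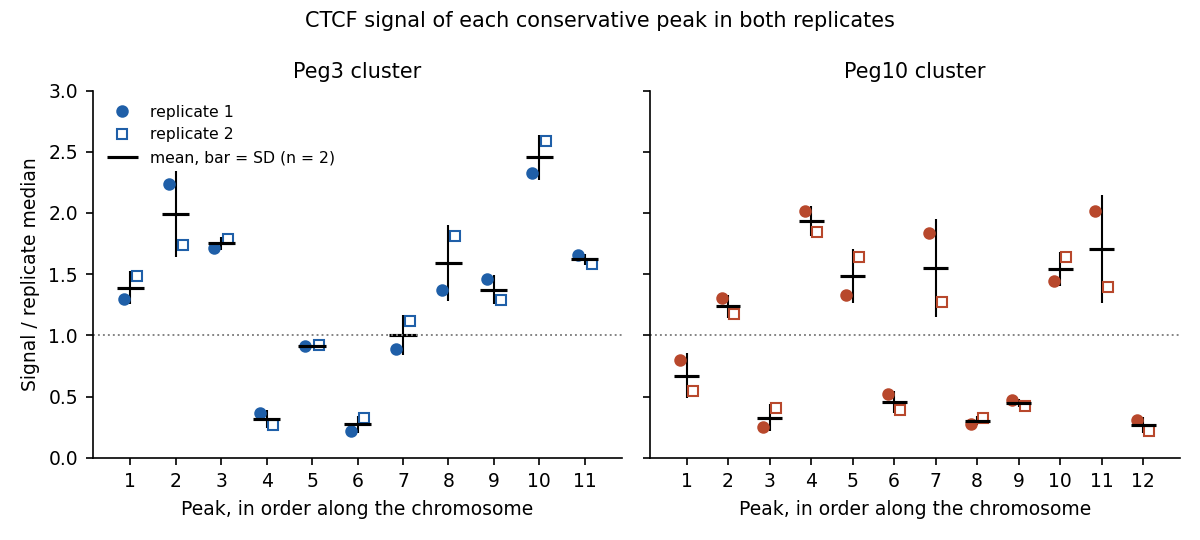
Signal of each conservative peak divided by the replicate's median over matched conservative peaks (y axis), for the 11 peaks of the Peg3 cluster and the 12 of the Peg10 cluster in chromosome order (x axis), with replicate 1 filled, replicate 2 open, and the mean with SD (n = 2). Peak 10 of the Peg3 cluster is the highest at 2.45, and peaks 6, 8, 9 and 12 of the Peg10 cluster, around Asb4, have means under 0.5.

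In the mm9 lists, Zim1 and Asb4 were the 2 of 7 members with a pooled peak midpoint within 1 kb of an annotated start, against 12.7% of 22208 protein-coding genes. At Zim1 this was the peak in the gene's intron (6641172 to 6642118 on chromosome 7), 123 bp from the start of the shorter of its 2 annotated transcripts, with a signal of 18.9 pooled, 19.8 in replicate 1 and 21.4 in replicate 2. Asb4 had a peak on each side of its start, at 673 bp (5332289 to 5333137; 8.58 pooled, 9.5 in replicate 1 and 8 in replicate 2) and 972 bp (5333862 to 5334854; 14.6 pooled, 19.3 in replicate 1 and 13.4 in replicate 2). These 2 peaks were rich in CpG, with observed-over-expected ratios of 0.617 and 0.505 that 2.20% and 5.06% of pooled peaks reach, against a median of 0.219. These shares are over all pooled peaks, and no comparison with peaks at other starts was made. The next highest ratios were 0.447 in a Ppp1r9a intron, 0.412 below Usp29 and 0.412 beyond the end of Sgce. They are reached by 7.92%, 10.5% and 10.4% of pooled peaks. The Peg3 intron peak had a ratio of 0.253 and a pooled signal of 10.97, with 13.7 and 11.1 in the replicates. The short mm9 model of Usp29 starts far from the Peg3 start of that build (6683132), so the start both genes share was scored there through Peg3. The strongest mm9 peak of both clusters, 23.9 pooled, lay 2389 bp from the start of that model, with 26.7 in replicate 1 and 29.99 in replicate 2. That start is not the one used for Usp29 on mm10, which is beside Peg3. All pooled mm9 peaks of the clusters overlapped a peak in both replicates, except the weakest, in an Asb4 intron, with 5.77 pooled and 7.43 in replicate 2 and no peak in replicate 1.

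Of 18 RefSeq genes in or next to the clusters, 13 had a conservative peak in their window, with a median of 3. Some of these windows overlap those of the members, so the counts partly repeat the members' own peaks. Windows of Bet1 and Tfpi2, with 3 others, held 0, those of Dync1i1 9 and of Pdk4 7. Most of the Pdk4 peaks were also counted for Asb4. Imprinted genes of other regions had a peak in 22 of 26 windows, with a median of 6.5, from 0 at 4 genes, Mest and Ube3a among them, to 12 at Blcap and 17 at Mcts2. Per 100 kb the medians were 1.77 for the members, 1.40 for the neighbours, 2.67 for other imprinted genes and 2.81 for all protein-coding genes. On mm9, 1 of 16 annotated neighbours had a pooled peak within 1 kb of a start, Col1a2, and 2 of 21 other imprinted genes, Gnas and Blcap, named because the counts are small.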

How the data were processed

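The authors deposited lists of peaks and background on mm10 for each replicate and both pooled, conservative and optimal IDR sets (irreproducible discovery rate, a measure of replicate agreement), and broad-peak lists on mm9. The signal values of the deposited files, mm10 and mm9, are on scales that are not stated. For the peak caller, aligner and IDR threshold, the sources used here give nothing. All work kept to the autosomes and X.

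Replicate entries were matched to a conservative peak by the nearest summit within 100 bp, and 41382 peaks matched in both replicates. RefSeq (GRCm38.p6) gave gene spans on mm10, and NCBIM37 with GENCODE vM1 gave sequence and starts on mm9. On mm9 a start was that of any transcript of a protein-coding gene, and on mm10 it was the outermost one, at the end of the gene span. No coordinates were converted between builds. The motif step started from the most enriched word of 9 letters and ran at most 30 rounds. It was tested on simulated sequences.

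The members and lists were chosen with earlier results of these data known. Named are the 7 members with every conservative peak, and 4 genes of each other list, with the most and the fewest peaks. Zim2 and Zim3 are named as places of peaks, and Col1a2 and Gnas, chosen after their values were seen, for small counts. The word for YY1, the CpG measures, the distance of matches to midpoints, the starting word's share and the genes of like length were added after the data were seen. Python 3.11.15, numpy 2.4.6, pandas 2.3.3, pysam 0.24.0 and samtools 1.23.1 were used.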

Additional observations from a re-analysis of the deposited data

How the results depend on the processing

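With a flank of 0 kb the Peg3 cluster kept 7 peaks, and with signals at or above the set's median the Peg10 cluster held 6. The median relative signal of the Peg3 cluster was 1.33 with matching within 50 bp and 1.25 when divided by the mean, where the Peg10 cluster had 1.04 and 0.838. With 500 bp around starts, 1 member had a promoter peak, Zim1. At a stricter motif score, reached by 0.1% of flanking windows, 0% of the Peg3 cluster's mm9 peaks had a motif and 11.1% of the Peg10 cluster's, the opposite order, which rests on 1 peak. The other 35 of 41 alternatives for these results moved counts by at most 1.5 times (8 peaks for the Peg10 cluster with a flank of 0 kb), or values by less than the spread between replicates or the exact 95% binomial interval. For the median relative signal, leaving out a replicate could not pass that spread, which comes from the same 2 values. The binomial interval is wide, with 9 pooled mm9 peaks in each cluster. Using either replicate alone gave 10 to 11 peaks for the Peg3 cluster and 11 to 12 for the Peg10 cluster. The median relative signal was then 1.37 to 1.48 and 0.858 to 1.05, the members with a promoter peak were 2, and 44.4% to 55.6% and 11.1% to 12.5% of mm9 peaks had a motif. Window counts of single genes and their standing among all genes moved in 15 of 63 alternatives, with the flank, a stricter signal or, for Usp29, counting per 100 kb. With replicate 2 alone Peg10 and Sgce had 3 peaks, and with replicate 1 alone Ppp1r9a had 2. With 2 libraries and no read counts, weak peaks such as those at the starts of Zim1, Peg10 and Sgce are the least certain, and intervals cover counting error only.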
